A study of Mus musculus with 7 samples.

Results

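The collagen chain genes measured here were the protein coding genes of the table whose symbol has the form Col, a number, a and a number, each of which encodes 1 collagen chain. There were 44 of them among 34866 genes, of which 21850 were protein coding. By type, 9 were fibrillar (types 1, 2, 3, 5 and 11), 6 were basement membrane chains (type 4) and 29 were other chains. Types 24 and 27, which are often counted as fibrillar, stand among the other chains under this rule. RNA was sequenced in bulk from ovaries of mice aged 8 to 12 weeks, each ovary homogenised by itself. Of the 7 libraries, 2 were wild type, CD-fed and fertile, 3 were Abcg5/Abcg8 knockout, CD-fed and infertile, and 2 were Abcg5/Abcg8 knockout, VOFD-fed and fertile. No source used here spells out the diets, the knockout allele or the genetic background. Nor do the labels say that each library is a separate animal, and the spread behind the p-values may therefore be partly technical. ABCG5 and ABCG8 together form a transporter that moves cholesterol and plant sterols out of cells. Both targeted genes lay at or below 0.212 TPM in every library, wild type included, so their level checks no label. Oocyte markers (Gdf9, Bmp15, Zp2, Zp3 and Ooep) summed to 175 to 489 TPM across the libraries, and none was at 0.

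Collagens are secreted proteins in which 3 chains wind into a helix, and the chains of a molecule are often products of different genes. Fibrillar collagens assemble into the cables of connective tissue, type 4 collagens form the sheets of basement membranes, and type 6 collagens form beaded filaments between them. In the ovary they make up the stroma, the theca and capsule, the walls of vessels and the basal lamina around each follicle, which is taken apart and rebuilt as follicles grow, ovulate and turn into corpora lutea.

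Several chains that assemble together are also neighbours in the genome (GENCODE M21 gene models, mouse build GRCm38). Col4a1 (chr8:11198423-11312826, minus strand) and Col4a2 (chr8:11312805-11449287, plus strand) run away from each other, and their gene models overlap by 22 bases at their starts. That shared stretch, read on the plus strand from the RefSeq promoter table of GRCm38.p6, is shown because both chains of the commonest type 4 molecule start in it.
Col4a2 and Col4a1 shared start, chr8:11312805-11312826: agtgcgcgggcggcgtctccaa
Col4a4 and Col4a3 lie in the same way on chromosome 1, with starts 72 bases apart, and Col4a6 and Col4a5 on the X chromosome, with starts 1309 bases apart. No source used here states whether the authors' counting used strand, so reads from the overlap of Col4a1 and Col4a2 cannot be assigned with certainty.

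The type 6 chains Col6a6, Col6a5 and Col6a4 lie head to tail on the minus strand of chromosome 9 (chr9:105687809-105828160, chr9:105856078-105960643 and chr9:105989454-106096783), with gaps of 27917 and 28810 bases. The 150 bases before each start are shown because Col6a4 differed in pattern from its neighbours Col6a5 and Col6a6 among the infertile ovaries. They come from the RefSeq table of GRCm38.p6 and are read 5′ to 3′ on the gene's strand, with motif matches in capitals.
Col6a4, chr9:106096784-106096933: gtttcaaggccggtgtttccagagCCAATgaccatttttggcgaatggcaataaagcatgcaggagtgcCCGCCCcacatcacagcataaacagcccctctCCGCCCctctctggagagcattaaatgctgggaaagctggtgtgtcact
Col6a5, chr9:105960644-105960793: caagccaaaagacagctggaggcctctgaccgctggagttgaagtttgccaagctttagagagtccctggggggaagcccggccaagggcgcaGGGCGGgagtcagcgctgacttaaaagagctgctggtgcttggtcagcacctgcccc
Col6a6, chr9:105828161-105828310: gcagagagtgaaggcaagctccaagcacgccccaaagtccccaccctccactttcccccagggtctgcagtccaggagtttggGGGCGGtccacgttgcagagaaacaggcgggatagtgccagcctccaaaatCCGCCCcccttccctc
Searched on both strands were the TATA box core TATAAA, the CCAAT box CCAAT, the GC box GGGCGG and AAGGTCA, the sequence known to bind the ovarian nuclear receptor SF-1. The Col6a4 window held 1 CCAAT box and 2 GC boxes, the Col6a5 window 1 GC box and the Col6a6 window 2 GC boxes, and none of them held TATAAA or AAGGTCA. Of 32817 windows of the same length before RefSeq starts, 28.6% held a GC box, 24.5% a CCAAT box, 7.58% TATAAA and 2.31% AAGGTCA. The 38 such windows of 35 collagen chain genes held them in 50.0%, 21.1%, 10.5% and 10.5%. These are matches of letters, and binding was not measured.

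Values are TPM, which divides by gene length, so that levels of different chains can be set beside each other. It keeps no sequencing depth. The most abundant chain was Col3a1, with a mean of 197 TPM over the 7 libraries, followed by Col6a1 with 157, Col1a2 with 149, Col6a2 with 118 and Col4a1 with 102. A mean of 10 to 100 TPM was reached by 13 chains and of 1 to 10 TPM by 17, and 9 lay below 1 TPM. The cartilage chains Col2a1, Col9a1 and Col10a1 were among the lowest, with 0.148, 0.0277 and 0.123 TPM. Of the 44 genes, 37 had at least 1 TPM in at least 2 libraries and were tested. The 7 others were Col2a1, Col9a1, Col10a1, Col17a1, Col19a1, Col24a1 and Col28a1, and 6 genes stayed under 1 TPM in every library. The 7 chains of the type 1, type 3 and common type 4 and type 6 molecules (Col1a1, Col1a2, Col3a1, Col4a1, Col4a2, Col6a1 and Col6a2) held between 67.6% and 82.8% of all collagen TPM in a library.

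Summed over all 44 genes, collagen TPM was 879.6 and 1187 in the wild type CD libraries, 1472, 684 and 1503 in the knockout CD libraries and 1060 and 965 in the knockout VOFD libraries. Both the lowest and the highest sum thus came from the infertile group, and the fertile libraries lay between them. Fibrillar chains summed to 364 and 464 TPM in wild type CD, 797, 259.7 and 604 in knockout CD and 392 and 335 in knockout VOFD. Knockout CD 1 was the library with the largest fibrillar share of its collagen TPM, 54.1%, against 34.7% to 41.4% in the other libraries. Basement membrane chains held a narrower range of shares, 14.9% to 19.3%. In bulk samples, fewer cells of a type and less RNA per cell cannot be told apart.

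**Figure D1:**
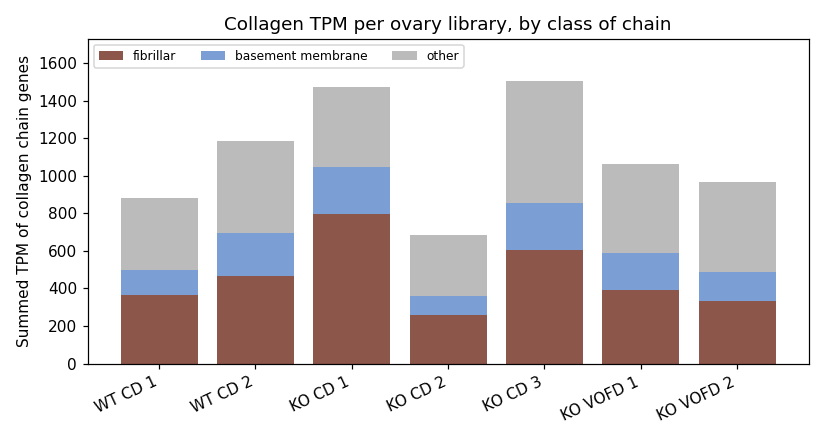
Summed TPM of the collagen chain genes in each of the 7 libraries, split into fibrillar, basement membrane and other chains. The infertile knockout CD libraries hold the lowest total, 684 TPM, and the highest, 1503 TPM, and knockout CD 1 has the tallest fibrillar section, 797 TPM.

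Among the fibrillar chains, Col3a1, which forms the thin fibrils of distensible tissue, stood at 151 and 209 TPM in wild type CD, 393, 98.0 and 206 in knockout CD and 179 and 143 in knockout VOFD. Col1a2, the minor chain of type 1 collagen, stood at 129 and 142 TPM, then 206, 95.2 and 232, then 126 and 114, in the same order of libraries. Col1a1, its major chain, stood at 52.3 and 70.5 TPM, then 134, 33.5 and 78.6, then 45.6 and 44.2. For all of these, knockout CD 1 was higher and knockout CD 2 lower than every fertile library, so the groups overlapped. Infertile minus fertile, Col1a1 differed by 0.43 on the log2 scale (95% interval -0.44 to 1.30, limma, adjusted p = 0.583), Col1a2 by 0.38 (-0.23 to 0.98) and Col3a1 by 0.24 (-0.61 to 1.10). The interval of each spanned 0, and without knockout CD 1 the differences of Col1a1 and Col3a1 were -0.02 and -0.25. As a protein, type 1 collagen is built from more α1 than α2 chains. In TPM, Col1a1 was below Col1a2 in every library, at a ratio of 0.340 to 0.649. These are RNA values of different genes, and the ratio of protein chains was not measured. The ratio of Col3a1 to Col1a2 was 1.91 in knockout CD 1 and between 0.888 and 1.47 elsewhere.

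The minor fibrillar chains had lower means. Col5a1 and Col5a2, which set the diameter of fibrils, ranged from 8.07 to 23.4 TPM and from 10.4 to 27.8 TPM, with their lowest values in knockout CD 2 and in wild type CD 1. Col5a3 ranged from 0.340 to 1.98 TPM and Col11a2 from 0.483 to 1.13 TPM. Col11a1, a chain best known from cartilage fibrils, stood at 9.38 and 10.2 TPM in wild type CD, 10.3, 13.3 and 44.9 in knockout CD and 9.74 and 7.80 in knockout VOFD. All infertile libraries lay above all fertile ones, but knockout CD 1 by a margin of under 0.1 TPM, and knockout CD 3 far above the rest. The infertile minus fertile difference of Col11a1 was 0.93 on the log2 scale (95% interval 0.01 to 1.85), with an adjusted p of 0.320 (limma, BH over all genes tested). Without knockout CD 3 it was 0.31.

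For the basement membrane, Col4a1 stood at 72.7 and 129 TPM in wild type CD, 147, 50.4 and 125 in knockout CD and 109 and 82.2 in knockout VOFD. Col4a2, its partner in the common type 4 molecule, stood at 40.4 and 71.9 TPM, then 78.2, 30.3 and 83.9, then 57.0 and 46.0. The pair kept close proportions from library to library: Col4a1 was between 1.49 and 1.92 times Col4a2 in each, while either gene alone varied by a factor of 2.77 or more. The infertile minus fertile differences were 0.02 (95% interval -0.75 to 0.80) for Col4a1 and 0.15 for Col4a2, and both changed sign under another scaling or with a library left out.

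The 4 remaining type 4 chains build the specialised networks known from kidney, lung and muscle. Col4a5 stood at 12.8 and 18.4 TPM in wild type CD, 14.8, 12.4 and 23.2 in knockout CD and 16.4 and 14.5 in knockout VOFD. Col4a6 stood at 4.46 and 5.64 TPM, then 5.33, 4.19 and 7.69, then 5.14 and 5.28, and Col4a5 was 2.75 to 3.26 times Col4a6 in every library. These were among the 4 tested chains whose highest library was under 2 times the lowest, with Col6a1 and Col13a1. Col4a4 stood at 3.14 and 3.55 TPM, then 4.47, 3.15 and 6.39, then 5.10 and 3.19. Col4a3 stood at 1.14 and 1.29 TPM, then 1.54, 1.62 and 3.36, then 1.72 and 1.20. The ratio of Col4a4 to Col4a3 was 1.95 in knockout CD 2 and 1.91 in knockout CD 3, and between 2.65 and 2.96 in the other 5 libraries, knockout CD 1 included.

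**Figure D2:**
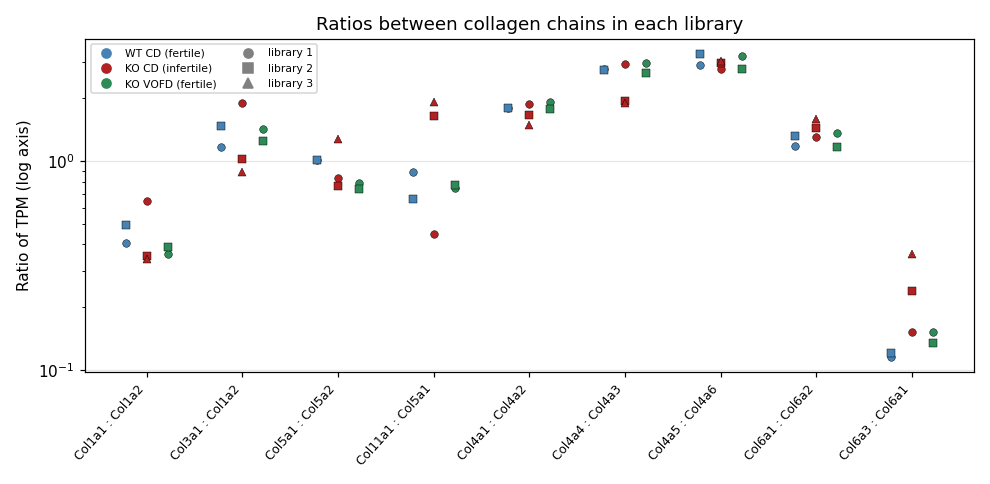
Ratio of the TPM of pairs of collagen chains in each library, on a log axis, with 1 point per library coloured by group. Col4a1 to Col4a2 and Col4a5 to Col4a6 stay within narrow bands (1.49 to 1.92 and 2.75 to 3.26), while Col6a3 to Col6a1 runs from 0.116 to 0.360 and Col11a1 to Col5a1 from 0.448 to 1.92.

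Among the type 6 chains, Col6a2, Col6a5 and Col6a6 lay below the fertile range in every infertile library. Above that range lay only knockout CD 3, for Col6a3 and Col6a4. Type 6 molecules combine the α1 and α2 chains with α3 or with the α3-like chains α4, α5 and α6. Col6a1 stood at 140 and 181 TPM in wild type CD, 148, 105 and 180 in knockout CD and 167 and 178 in knockout VOFD. Col6a2 stood at 118 and 137 TPM, then 114, 73.2 and 113, then 121 and 153, so that its infertile libraries all lay below its fertile ones. Col6a3 stood at 16.3 and 21.9 TPM, then 22.6, 25.3 and 64.7, then 25.3 and 24.2. Its ratio to Col6a1 was 0.153, 0.241 and 0.360 in the infertile libraries and 0.116 to 0.152 in the fertile ones. Knockout CD 1 (0.1533) and knockout VOFD 1 (0.1522) were almost equal in this ratio. Infertile minus fertile, Col6a2 differed by -0.42 on the log2 scale (adjusted p = 0.303) and Col6a3 by 0.61 (adjusted p = 0.394), both by limma with BH over all genes tested. Without knockout CD 3 the difference of Col6a3 was 0.14.

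Of the tandem chains whose upstream windows are printed above, Col6a5 and Col6a6 were lower in every infertile library than in any fertile one. Col6a4 did not share this pattern. Col6a4 stood at 14.2 and 17.2 TPM in wild type CD, 7.60, 16.2 and 66.9 in knockout CD and 16.6 and 13.1 in knockout VOFD, the widest spread of any tested chain at 8.80 times. Its infertile libraries held both the lowest and the highest value. Col6a5 stood at 3.80 and 6.16 TPM in wild type CD, 0.992, 1.54 and 1.24 in knockout CD and 7.74 and 2.75 in knockout VOFD. All 3 infertile libraries lay below all 4 fertile ones, with means of 1.26 ± 0.277 TPM (SD, n = 3) and 5.11 ± 2.26 TPM (SD, n = 4). The difference was -1.37 on the log2 scale (SE 0.30, 95% interval -2.03 to -0.70), with an unadjusted p of 0.00114 and an adjusted p of 0.107 (limma, BH over all genes tested), which missed the threshold of 0.05. Over the alternative settings its adjusted p ranged from 0.0686 to 0.266. Col6a6 stood at 3.61 and 5.89 TPM, then 2.75, 3.46 and 3.51, then 6.39 and 5.64, with a difference of -0.57 (adjusted p = 0.262 by limma). Its groups did not overlap either, with knockout CD 3 and wild type CD 1 closest to each other.

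Beside these stood values of ovarian cell type markers, whose part in the result was not tested. The 5 luteal markers (Ptgfr, Akr1c18, Lhcgr, Star and Sfrp4) summed to 710, 137 and 155 TPM in the infertile libraries and to 1137 to 2114 TPM in the fertile ones. All infertile libraries lay below all fertile ones for 4 of the 5. The exception was Star, the cholesterol carrier of steroid-making cells, which gave 603 of the 710 TPM in knockout CD 1 and stood at 93.7 and 61.9 TPM in knockout CD 2 and 3 and at 220 to 378 TPM in the fertile libraries. The 4 theca and interstitium markers summed to 2504, 440 and 731 TPM in the infertile libraries and to 1532 to 2537 TPM in the fertile ones, sums that rest mostly on Cyp11a1 (2481, 250.3 and 602 TPM in the infertile libraries). The other theca markers had another order. Cyp17a1 stood at 3.53, 149.5 and 81.9 TPM, Insl3 at 7.01, 16.7 and 18.2 and Enpep at 12.7, 23.7 and 29.0, each lowest in knockout CD 1 among the infertile libraries.

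Among the other chains, Col22a1, a collagen known from tissue junctions such as that of muscle and tendon, stood at 0.529 and 0.657 TPM in wild type CD, 1.61, 2.25 and 2.54 in knockout CD and 0.923 and 0.671 in knockout VOFD. Every infertile library lay above every fertile one, with means of 2.13 ± 0.474 TPM (SD, n = 3) and 0.695 ± 0.165 TPM (SD, n = 4). Only infertile libraries reached 1 TPM, so Col22a1 passed the filter through the group where it was high. Its separation and p-values are therefore a description and no independent support. The difference was 0.88 on the log2 scale (SE 0.21, 95% interval 0.40 to 1.36, limma, adjusted p = 0.141). Without knockout CD 1 it was 1.00 with an adjusted p of 0.0471 by the same test, which passes the threshold. In that fit 665 of 15328 genes passed, in place of 38 of 15487, and Col22a1 was the only collagen chain among them. Over all alternatives the adjusted p of Col22a1 ranged from 0.0471 to 0.344. The pseudocount of 1 understates changes at this level.

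Col16a1, which associates with fibrils, stood at 13.8 and 12.6 TPM, then 22.4, 14.0 and 27.4, then 14.3 and 12.8, with a difference of 0.58 (adjusted p = 0.262, limma). Col18a1, a basement membrane zone collagen whose end fragment is endostatin, stood at 14.2 and 28.7 TPM, then 32.4, 19.9 and 37.4, then 28.9 and 24.9. Col8a2, a network-forming chain, stood at 1.91 and 1.77 TPM, then 2.97, 2.69 and 4.53, then 2.37 and 3.29. Wild type libraries were the lowest for Col8a2, and both knockout groups lay above them. Col25a1, a transmembrane collagen, stood at 0.644 and 0.657 TPM, then 0.480, 1.04 and 0.805, then 1.42 and 0.872. The values of Col16a1, Col18a1 and Col25a1 overlapped between the infertile and the fertile libraries.

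**Figure D3:**
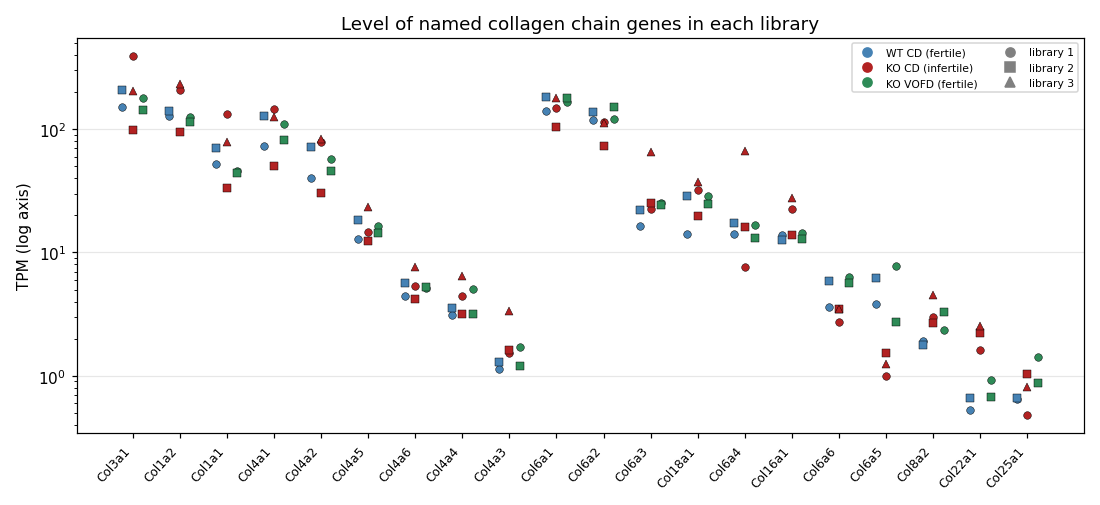
TPM of the named collagen chain genes in each library on a log axis, 1 point per library coloured by group. Points of the 3 infertile libraries lie below all fertile points for Col6a5 (0.992 to 1.54 against 2.75 to 7.74 TPM) and above them for Col22a1 (1.61 to 2.54 against 0.529 to 0.923 TPM).

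Other tested chains stood out in a single library. Knockout CD 3 exceeded 2 times the highest other library for 4 of the 37 tested chains (10.8%), Col11a1, Col9a2, Col6a3 and Col6a4, against 1.54% of all genes tested. Col11a1, Col9a2 and Col12a1 were named after their values were seen. Col9a2, a chain of a collagen that coats cartilage fibrils, stood at 8.14 and 14.2 TPM in wild type CD, 8.32, 16.7 and 62.0 in knockout CD and 17.7 and 10.9 in knockout VOFD. Without knockout CD 3 its infertile minus fertile difference was -0.04, against 0.72 with it. Col12a1, which bridges fibrils, stood at 5.26 and 6.51 TPM, then 12.4, 5.15 and 19.5, then 6.17 and 5.33.

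Knockout CD 3 also differed in marker RNA. Its 3 oviduct markers (Ovgp1, Pax8 and Foxj1) summed to 369 TPM, against 4.04 to 46.1 TPM in the other 6 libraries. Ovgp1 gave 352 of the 369 TPM. Pax8 stood at 9.21 TPM there against at most 1.70 elsewhere, while Foxj1, at 7.16 TPM, lay close to the 7.02 TPM of knockout VOFD 2. Its 5 granulosa markers (Fshr, Amh, Inha, Foxl2 and Cyp19a1) summed to 3940 TPM, with 3337 in knockout CD 2, 1001 in knockout CD 1 and 1200 to 1699 in the fertile libraries, most of it from Inha (3410 TPM in knockout CD 3). The defining cartilage markers Acan and Matn1 were at most 0.590 and 0.128 TPM in any library, Comp at most 4.90, and Cnmd, which ranged from 89.8 to 161 TPM, was highest in knockout VOFD 2. In knockout CD 1, the library with high type 1 and type 3 chains, smooth muscle markers summed to 1305 TPM against 561 to 817 elsewhere, with each of the 5 highest there. Adipose markers summed to 1294 TPM against 113 to 1095, most of it from Cfd, which was higher in knockout CD 2 (868 TPM) than in knockout CD 1 (828 TPM). Stromal fibroblast markers summed to 812 to 817 TPM in the infertile libraries and 515 to 712 in the fertile ones, with Dcn the largest of them in every library. Of the 5 markers, only 1, Nr2f2, had every infertile library above every fertile one. Dcn overlapped, at 413.2 TPM in knockout CD 1 and 425.5 in knockout VOFD 1, and Tcf21 was lowest in knockout CD 3, at 67.25 TPM. The part of these cells in the collagen values was not tested.

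**Figure D4:**
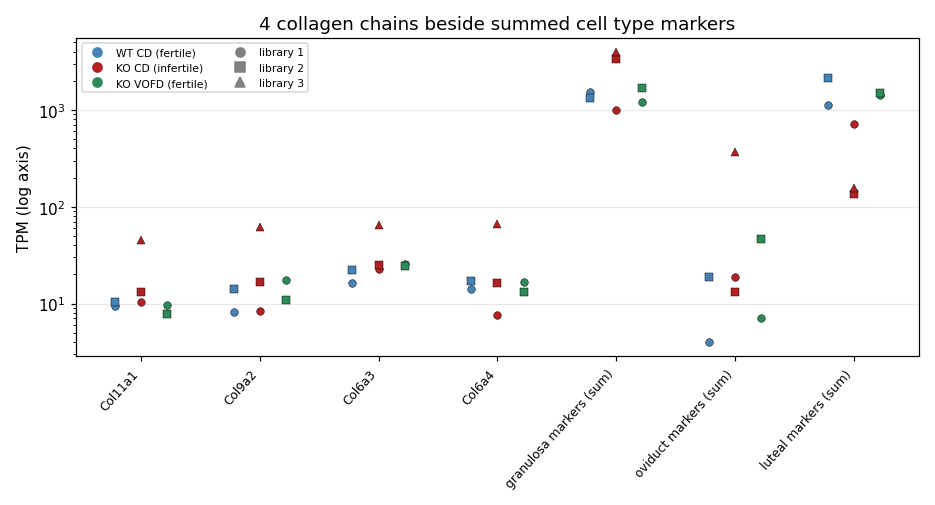
TPM of 4 collagen chains beside the summed TPM of granulosa, oviduct and luteal markers in each library, on a log axis, with colour for the group and symbol for the library number. Knockout CD 3 stands out in the oviduct sum, 369 TPM against 4.04 to 46.1, and all infertile libraries lie below the fertile ones in the luteal sum.

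Which library was highest or lowest depended in part on scale. On the TPM scale, knockout CD 3 was the highest library for 19 of 37 tested chains (51.4%), close to its share among all genes tested, 48.4%. Knockout CD 2 was the lowest for 16 chains (43.2%), against 12.5% of all genes. With libraries scaled by the median of ratios, where the factor was 1.23 for knockout CD 3 and 0.846 for wild type CD 1, knockout CD 3 was highest for 11 chains (29.7%, all genes 24.8%). Knockout CD 1 was then highest for 14 (37.8%, all genes 18.7%) and knockout CD 2 lowest for 17 (45.9%, all genes 14.9%). The low collagen values of knockout CD 2 thus held on both scales.

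The first comparison of the design sets the knockout against the wild type on the same CD diet. None of the 37 tested chains passed the threshold (limma, BH over all genes tested), where 0.110% of all genes did, and the smallest adjusted p was 0.320, for Col6a5 and Col22a1. At an unadjusted p under 0.05 there were 2 chains, Col6a5 at -1.38 and Col22a1 at 0.96 on the log2 scale, or 5.41% against 10.3% of all genes. Col8a2 followed at 0.61 (adjusted p = 0.489, limma) and Col16a1 at 0.60 (adjusted p = 0.495, limma). The groups did not overlap for 10 chains, against 26.5% of all genes. Of these 7 were higher in the knockout (20.6% of all genes) and 3 lower (5.95%). Of the 37, 26 had a positive difference (70.3%, all genes 72.3%), with a median of 0.22 beside 0.19 for all genes. Class medians were 0.26 for fibrillar, 0.12 for basement membrane and 0.28 for other chains. With median-of-ratios scaling, 19 of 36 were positive with a median of 0.04, beside -0.0045 for all genes. The basement membrane median turned to -0.08.

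The second comparison sets the diets against each other within the knockout. It shares the knockout CD libraries with the first, so its values are not independent of it. No chain passed the threshold (limma, BH, smallest adjusted p = 0.458), where 0.0452% of all genes did, and 3 had an unadjusted p under 0.05 (8.11%, all genes 7.94%). These were Col6a5 at 1.35, Col22a1 at -0.79 and Col6a6 at 0.73 on the log2 scale, VOFD minus CD, and Col6a2 came next at 0.47 (adjusted p = 0.645, limma). The groups did not overlap for 10 chains, against 26.5% of all genes. Of these 5 were higher on VOFD (8.68% of all genes) and 5 lower (17.9%). The median of the 37 was -0.13 beside -0.10 for all genes, with -0.39 for fibrillar, -0.11 for basement membrane and -0.10 for other chains. With median-of-ratios scaling the median of other chains was 0.01, beside 0.0023 for all genes.

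The third comparison sets the fertile knockout on VOFD against the fertile wild type on CD, which differ in both genotype and diet. No chain passed the threshold, where 0.0129% of all genes did, and none had an unadjusted p under 0.05 by limma, against 1.99% of all genes. All 37 differences lay between -0.43 and 0.42 on the log2 scale, with a median of 0.04 beside 0.08 for all genes. The smallest p-values belonged to Col8a2 at 0.42 (95% interval -0.26 to 1.10), Col25a1 at 0.37, Col6a6 at 0.31 and Col18a1 at 0.39. The groups, of 2 libraries each, did not overlap for 9 chains, against 34.4% of all genes. Of these 5 were higher in the VOFD libraries (24.6% of all genes) and 4 lower (9.88%). The 95% interval of Col1a1, at -0.43, ran from -1.61 to 0.75. With median-of-ratios scaling, 14 of 36 differences were positive, with a median of -0.05 beside -0.0127 for all genes.

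Infertile against fertile ovaries pooled the wild type CD and knockout VOFD libraries and shares all of its libraries with the comparisons before it. No chain passed the threshold (limma, BH, smallest adjusted p = 0.107), where 0.245% of all genes did, and 7 had an unadjusted p under 0.05 (18.9%, all genes 15.4%). These were Col6a5, Col6a6 and Col6a2 on the lower side and Col22a1, Col16a1, Col12a1 and Col11a1 on the higher side, with Col12a1 at 0.81 (adjusted p = 0.309, limma). The number was 7, 14 and 6 without knockout CD 1, 2 and 3 in turn, where all genes gave 25.6%, 17.8% and 10.8%. The groups did not overlap for 6 chains, against 15.0% of all genes. Col11a1, Col22a1 and Col23a1 were higher (11.2% of all genes) and Col6a2, Col6a5 and Col6a6 lower (3.76%) in the infertile libraries. Of these, Col22a1 passed the filter through its infertile libraries alone. On the median-of-ratios scale, a comparison added after seeing the data, 5 did not overlap (13.5%, all genes 14.7%), namely Col22a1 on the higher side and Col6a1, Col6a2, Col6a5 and Col6a6 on the lower. The median of the 37 was 0.24 beside 0.15 for all genes. With median-of-ratios scaling the median of the tested chains was 0.10, beside 0 for all genes. Leaving out knockout CD 2 gave a fibrillar median of 0.76, and leaving out knockout CD 1 gave -0.0025.

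**Figure D5:**
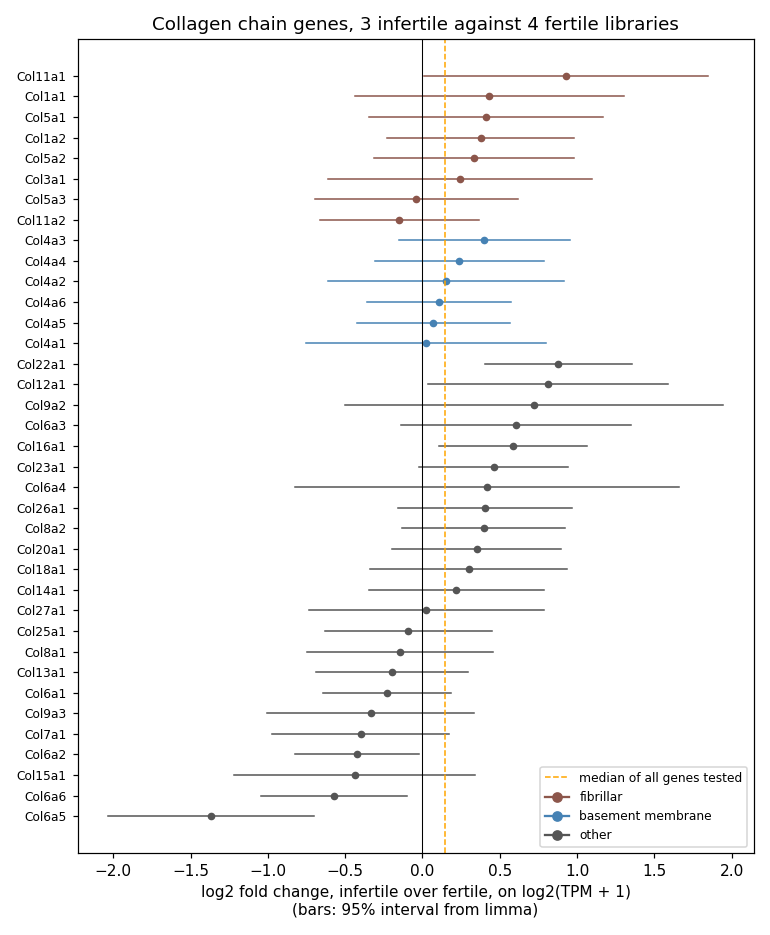
Infertile minus fertile difference of each tested collagen chain gene on the log2(TPM + 1) scale, with 95% intervals from limma, colours for the class of chain and a dashed line at the median of all genes tested, 0.15. Col6a5 has the lowest value, -1.37, and Col11a1 the highest, 0.93, and most intervals span 0.

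The genes that modify, cut, degrade, bind and sense collagen gave no call either in any of the 4 comparisons (limma, BH over all genes tested). Counts for these lists are for infertile against fertile, where 69.2% of all genes tested had a positive difference and 15.4% an unadjusted p under 0.05. Of 19 genes for collagen modification and folding, 15 were higher in the infertile mean and 7 (36.8%) had an unadjusted p under 0.05. The list median was 0.30 on the log2 scale, beside 0.15 for all genes. Fkbp10, a folding factor of procollagen, stood at 40.4 and 46.4 TPM in wild type CD, 77.0, 57.3 and 98.5 in knockout CD and 44.5 and 38.9 in knockout VOFD. Its groups did not overlap, with a difference of 0.82 (SE 0.18, adjusted p = 0.109, limma). P4hb, a subunit of prolyl 4-hydroxylase, stood at 221 and 263 TPM, then 326, 313 and 437, then 242 and 261, with a difference of 0.52 (adjusted p = 0.180, limma). With median-of-ratios scaling, 12 of the 19 remained positive, where 7732 of 15463 genes tested were. The list median was then 0.21, beside 0 for all genes. In that fit 10 of the 19 (52.6%) had an unadjusted p under 0.05 by limma, against 15.3% of all genes.

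Of 11 tested genes for procollagen processing and crosslinking, 6 were higher and 5 lower, where 69.2% of all genes were higher. The list median was 0.28, beside 0.15 for all genes. With median-of-ratios scaling 6 of the 11 were again higher, where 7732 of 15463 genes tested were. On the TPM scale 3 (27.3%) had an unadjusted p under 0.05 (all genes 15.4%). Adamts2, which removes the amino-terminal propeptide of fibrillar procollagens, stood at 22.1 and 27.7 TPM in wild type CD, 29.5, 48.5 and 94.8 in knockout CD and 23.8 and 23.9 in knockout VOFD (difference 1.05, adjusted p = 0.208, limma). Pcolce2, an enhancer of the carboxy-terminal proteinase, stood at 1.46 and 2.14 TPM, then 0.415, 0.176 and 0.423, then 0.891 and 1.16 (difference -0.83, adjusted p = 0.198, limma). Both genes had groups that did not overlap. Pcolce2 reached 1 TPM only in fertile libraries, so it passed the filter through the group where it was high. At its level the pseudocount also affects the size of the difference.

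Among 12 tested genes of collagen breakdown and its inhibitors, 8 were higher and 4 lower, close to the 69.2% of all genes, and 3 (25%) had an unadjusted p under 0.05 (all genes 15.4%). Mmp15, a membrane-bound metalloproteinase, stood at 13.0 and 15.3 TPM, then 7.38, 4.78 and 9.63, then 15.1 and 14.0. Its difference was -0.94 (adjusted p = 0.117, limma), and the adjusted p passed the threshold under median-of-ratios scaling (0.0391) and under quantile normalization (0.0344). Timp1, a metalloproteinase inhibitor, stood at 199.8 and 303 TPM, then 203, 29.4 and 32.2, then 149.9 and 172, so that knockout CD 1 lay with the fertile libraries. Its difference was -1.76 (adjusted p = 0.241, limma), and -2.65 without knockout CD 1 (adjusted p = 0.00206, limma). The latter fit leaves out the very infertile library that lay with the fertile ones, and 665 genes passed in it in place of 38. It is therefore no support for a lower Timp1 level in infertile ovaries.

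Of 18 basement membrane partners, 15 were higher in the infertile mean (all genes 69.2%) and 7 (38.9%) had an unadjusted p under 0.05 (all genes 15.4%). The list median was 0.44, beside 0.13 for the type 4 chains and 0.15 for all genes. With median-of-ratios scaling the median was 0.28 for the partners, -0.025 for the type 4 chains and 0 for all genes. Without knockout CD 3, 11 of the 18 partners were higher, with a median of 0.22 beside 0.06 for all genes. An unadjusted p under 0.05 was then reached by 4 of them (22.2%, all genes 10.8%). Lama4, a laminin chain of vessel walls, stood at 11.3 and 13.7 TPM in wild type CD, 20.4, 18.5 and 24.1 in knockout CD and 13.8 and 14.3 in knockout VOFD (difference 0.62, adjusted p = 0.152, limma). Lama1, a laminin chain best known from early basement membranes, stood at 13.1 and 19.9 TPM, then 27.7, 21.7 and 63.3, then 17.4 and 13.6 (difference 1.05, adjusted p = 0.216, limma). Infertile values of both laminins lay above all fertile ones. Endothelial markers summed to 86.6 to 125 TPM in the infertile libraries and 102 to 122 TPM in the fertile ones.

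Fibril-binding proteoglycans, collagen receptors and TGF-beta genes had medians of 0.39, 0.17 and -0.02 over 8, 8 and 10 tested genes, with 1 (12.5%), 1 (12.5%) and 3 (30%) at an unadjusted p under 0.05 (all genes 15.4%). Dcn, a proteoglycan that coats fibrils, differed by 0.44 (adjusted p = 0.294, limma) and the integrin subunit Itga2 by 0.89 (adjusted p = 0.290, limma). Among the TGF-beta genes, the co-receptor Tgfbr3 differed by 0.73 (adjusted p = 0.188, limma) and the matrix protein Ccn2 by -0.33 (adjusted p = 0.262, limma). Without knockout CD 1, Colgalt2, Adamts2, Timp1, Sparc, Smoc2 and Itga2 passed the threshold, in a comparison in which 665 genes did so in place of 38. Colgalt2, Sparc and Smoc2 were named after their values were seen.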

How the data were processed

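The authors deposited TPM for 34866 genes in 7 libraries. Columns share the same total, so TPM keeps no depth and no counting interval was computed. Per the submitters' processing notes the build was GRCm38. No source used here names the aligner, the quantification tool, the annotation or whether strand was used. Ensembl IDs were matched to symbols (34582 of 34866) and to GENCODE M21 (34652, of which 32644 had the same version; 40 of the 44 collagen IDs did).

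Values were transformed as log2(TPM + 1), which understates changes of low genes, and 15487 genes with at least 1 TPM in at least 2 libraries were kept. Linear models came from limma 3.58.1 under R 4.3.3 (data.table package, version 1.17.8, Python 3.11.15, pandas 2.3.3, matplotlib 3.10.9), with a trend in the variance prior, 2-sided tests and BH adjustment over the 15487 genes, at a threshold of 0.05. The 3 group means left 4 residual degrees of freedom, and infertile against fertile left 5. The models were tested on simulated data drawn without shifts of whole libraries, so how they behave under such shifts was not tested. Groups came from the sample titles, and columns were matched to samples by the sample descriptions.

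The members, the gene lists and the tests were chosen with earlier results of these data known. Named chains were those past the threshold, the 4 with the smallest p in each comparison, the 3 most abundant of each class and all chains of types 1, 3, 4 and 6. From each related list up to 2 genes per comparison could be named. Alternatives were another pseudocount (0.1), no filter or a filter of 5 TPM, median-of-ratios scaling, quantile normalization, TPM without mitochondrially encoded genes, the compared groups only, a replicate block and leaving out each library.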

Additional observations from a re-analysis of the deposited data

Results flagged for a closer look

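For 39 quantities, the 20 named chains and 19 sums, shares and ratios, the 4 fertile libraries were examined for a value far from the others, by Dixon's gap criterion. It picked out 1. The ratio of Col4a1 to Col4a2 was 1.92 in knockout VOFD 1, against 1.79 to 1.80 in the other 3 fertile libraries. Chance flags about 1 in 20 such groups. The infertile libraries, which ranged from 1.49 to 1.88, were too few to be examined in this way.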

How the results depend on the processing

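The count of chains past the threshold stayed at 0 in every comparison and setting run, except infertile against fertile, where leaving out 1 library at a time gave 0 to 1 (Col22a1, without knockout CD 1). Class medians on the log2 scale depended on the infertile libraries. With 1 library left out, the fibrillar median ranged from 0.0158 to 0.72 for knockout CD against wild type CD, from -0.84 to -0.0809 for VOFD against CD and from -0.0025 to 0.76 for infertile against fertile, the far ends without knockout CD 2 and the near ends without knockout CD 1. The median of other chains ranged from -7e-04 to 0.44, from -0.33 to 0.22 and from -0.045 to 0.48, with knockout CD 3 left out at the ends nearest to 0 or beyond it. Replicate numbers did not pair the libraries (correlations of deviations between same-numbered libraries -0.19 to 0.05). With the replicate block, and with a crossed pairing added after seeing the data, the medians of other chains were -7e-04, 0.22 and -0.045 in the same comparisons, and 0 chains passed. Replicate 3 exists only in the knockout CD group, so the block takes that library out of the contrast. For the other shifts the cause was not tested. Over all genes tested, 17, 7, 2 and 38 passed in the 4 comparisons, with ranges of 3 to 174, 3 to 104, 2 to 21 and 4 to 665 over the settings. Under the crossed pairing these were 35, 4, 11 and 19. Of the 20 named chains, 12 kept the sign of their infertile minus fertile difference in every setting, among them Col6a5, Col6a6, Col6a2, Col16a1 and Col22a1. A fit of only the groups compared does not apply to infertile against fertile. Depth is unknown, and 2 or 3 libraries a group limit what could be detected.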
